A study of Mus musculus with 2 samples.

Results

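The Polycomb, trithorax and chromatin remodelling genes described here are 51 genes listed by symbol among the 18194 genes that the arrays could name. They comprise 24 Polycomb genes, 7 trithorax genes, 14 genes of the BAF complex and 6 CHD genes. All 51 were found under their current symbols, with 128 of the 34958 probe sets that carry 1 gene symbol. A probe set is a group of short oligonucleotides that together report 1 transcript or a part of it.

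The RNA came from wild-type mouse embryos, taken whole at E14.5, a stage at which most organ primordia have formed, and was run on duplicate Affymetrix Mouse Genome 430 2.0 arrays. Both arrays are of 1 condition with no treatment or mutation, so nothing was compared between groups. The study's methods name the NMRI and C57/BL6 strains for embryos of this stage without saying which was used on the arrays. The number of embryos and whether the duplicates came from separate RNA are not given in the sources used here, and the spread between the arrays may be technical. Markers of liver, skeletal muscle, red cells, cartilage, neural progenitors, neurons and dividing cells lay above background in 29 of 29 measured cases, beside 65.7% of all named genes. Those of late spermatids and photoreceptors did so in 0 of 8, though the spermatid marker Prm1 fell only just short, at 27.6 and 32.8.

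Polycomb and trithorax proteins keep genes in a silent or an active state through cell division. Polycomb repressive complex PRC2 methylates histone H3 at lysine K27, and PRC1 binds that mark or is recruited on its own and ubiquitinates histone H2A. Trithorax complexes methylate histone H3 at lysine K4, while BAF and CHD proteins use ATP to slide or evict nucleosomes. In the embryo these systems hold the borders of Hox gene expression and time the passage of neural progenitors to neurons, when several BAF subunits are exchanged for neuronal ones.

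To call a gene above background, 1 or more of its probe sets had to exceed a bound on each of the duplicates. Genes of odorant, pheromone (vomeronasal) and bitter taste receptors, assumed to be silent at this stage, gave the bound, which is the 95th percentile of their 83 probe sets and lay at 27.6 for array 1 and 33.8 for array 2. Signals are on the authors' linear scale, on which the trimmed mean of each array is 100. The response of each probe set is its own, so a signal was set only against the bound and against the same probe set on the other array, and never read as a higher or lower level than that of another gene. In RNA of a whole embryo, fewer cells that express a gene and less RNA per cell cannot be told apart.

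Nearly all of the listed genes were detected in the embryo's RNA. Of the 51 genes, 50 were above background on both arrays, against 65.7% of all named genes. The exception was Cbx7, a chromobox subunit of PRC1. All 7 trithorax, 14 BAF and 6 CHD genes passed, and 23 of 24 Polycomb genes did. Only 4 of the 50 had a brightest probe set that stayed under 2 times the bound on either or both arrays, against 21.1% of all genes above background. This comparison was not matched for the number of probe sets per gene, of which the members had more. No test was made of these counts, since genes are not replicates. The list was also chosen with earlier results of these data known.

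**Figure D1:**
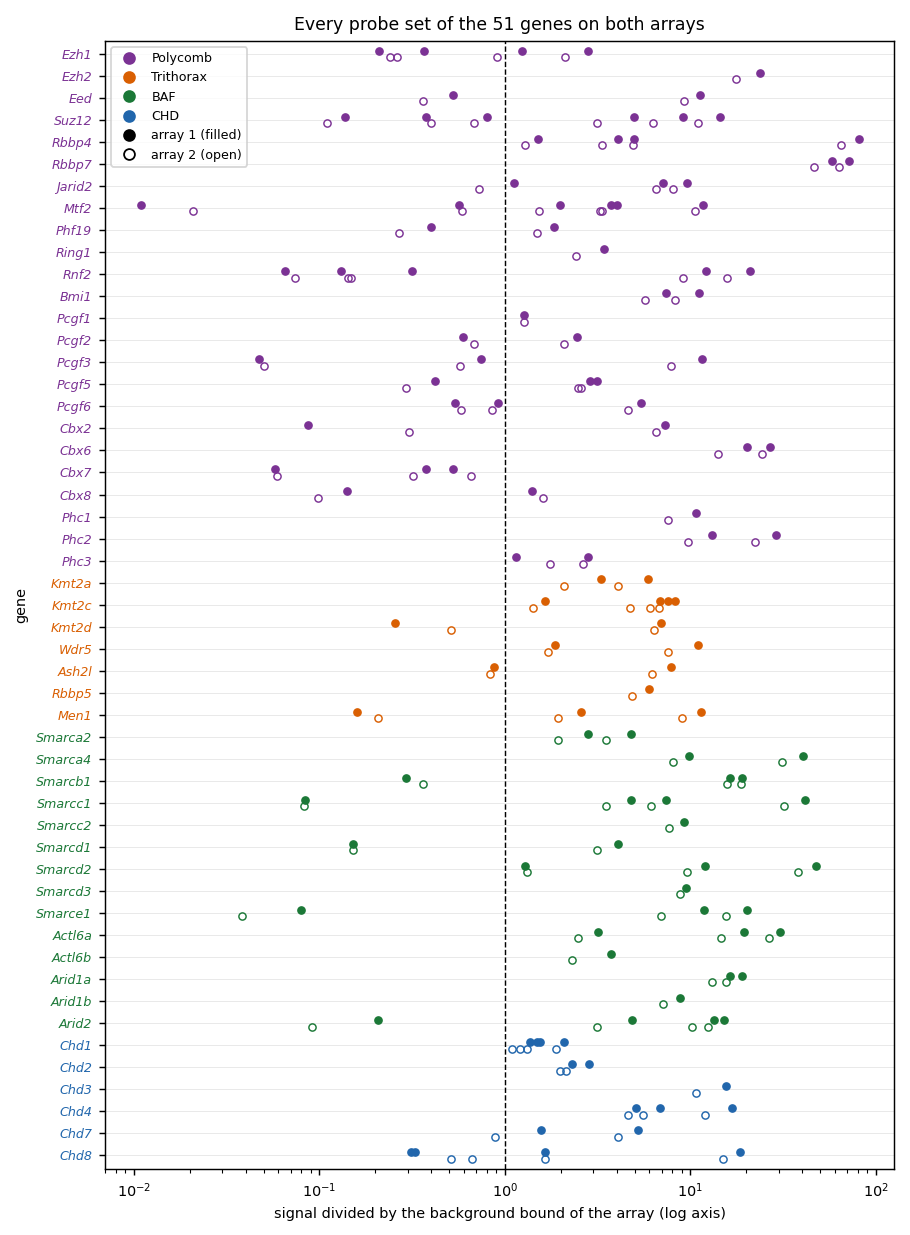
The 128 probe sets of the 51 genes, 1 row per gene, with filled points for array 1 and open points for array 2; the log axis gives the signal as a multiple of the bound on the same array. The dashed line is the bound, and colours mark the 4 groups. Every gene except Cbx7 has a probe set to the right of the line on both arrays, and 21 genes also have a probe set to the left of it on both.

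The share of genes above background depends on how many probe sets a gene has, and the members had more of them than other genes, with a mean of 2.51 against 1.92. Within each number of probe sets the members were therefore set beside all genes. Of members with 1 probe set, 10 of 10 passed, where 48.7% of all such genes did. With 2 probe sets the counts were 20 of 20 members and 76.2% of genes. With 3 they were 10 of 11 and 87.4%, and with 4 or more 10 of 10 and 93.7%. The distance between members and other genes was widest for single probe sets and small where genes had 3 or more.

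**Figure D2:**
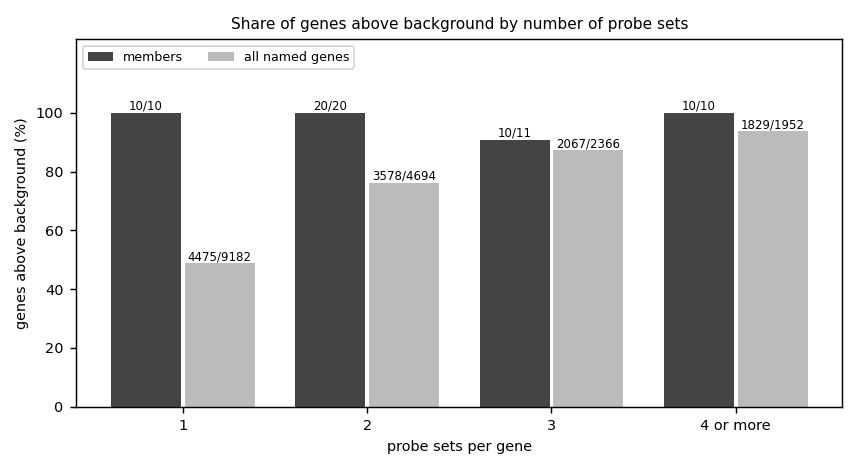
Share of genes above background on both arrays, in percent, by the number of probe sets per gene, for the 51 members (dark) and all 18194 named genes (light); the numbers of genes stand above the bars. The share of all genes climbs from 48.7% to 93.7%, whereas only 1 member, with 3 probe sets, is missing.

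The core of PRC2 was above background in full, including both alternative methyltransferases. Ezh2, the catalytic subunit typical of dividing cells, had a single probe set, at 656 on array 1 and 592 on array 2. Ezh1, its counterpart that is known from resting and differentiated cells, passed through 1 of 4 probe sets at 77.4 and 71.3. A second probe set of Ezh1 was above the bound on array 1 only, at 34.2 and 30.5, and the other two were below it on both arrays, with signals from 5.8 to 10.1. The call for Ezh1 thus rested on 1 probe set, and that for Ezh2 on the only one there was.

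Eed, which reads the methyl mark and stimulates the enzyme, had 311.4 and 310.6 in 1 probe set and 14.6 and 12.2 in the other. Suz12, the scaffold of the complex, was split evenly, with 3 of 6 probe sets above the bound and a brightest one at 401.9 and 373.4, and the remaining 3 between 3.7 and 22.9. In both genes the duplicates agreed on the side of the bound for each probe set.

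The histone chaperones Rbbp4 and Rbbp7, which PRC2 shares with other chromatin complexes, had all of their probe sets above the bound. Rbbp4 reached 2230 and 2205 in 1 probe set, and its other three lay between 41.5 and 165.1. Rbbp7 gave 1599 and 1573 in 1 probe set and 1978 and 2141 in the other. The brightest probe set of each gene is of a kind that can cross-hybridise to related transcripts, as it is for 8 members in all: Suz12, Rbbp4, Rbbp7, Jarid2, Cbx6, Phc2, Smarcb1 and Actl6a. The part of other transcripts in these signals was not tested, but all of these genes except Jarid2 were also above background through other probe sets.

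Among the accessory subunits of PRC2, Jarid2, which helps to bring the complex to its targets, had 263.9 and 273.1. Without probe sets open to cross-hybridisation Jarid2 was not above background, since its remaining probe set had 31.0 on array 1 and 24.4 on array 2. Mtf2, a Polycomb-like protein that binds CG-rich DNA, passed through 4 of 6 probe sets, with 322.1 and 357.4 in the brightest, while 1 of the others was at 0.3 and 0.7. Phf19, of the same Polycomb-like family, lay near the bound at 51.1 and 50.5. Of the accessory genes Phf19 was the only one under 2 times the bound.

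All 8 ring finger genes of PRC1 passed. Ring1 and Rnf2 encode the alternative ubiquitin ligases, and the Pcgf proteins are their partners, which define the variants of the complex. Rnf2 had 577.7 and 531 in its brightest probe set, with 2 of 5 above the bound, and Ring1 had 95.2 and 81.5 in its only one. Of the partners, Bmi1 (also known as Pcgf4), which restrains the Cdkn2a locus in stem cells, had 309.4 and 279.7. Every measured partner was thus above background, from Pcgf1 to Pcgf6.

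Pcgf1 was the member nearest to the bound, at 35.0 on array 1 and 42.9 on array 2. Pcgf2 had 67.6 and 70.7, Pcgf5 87.0 and 83.8, Pcgf6 150.7 and 155.8 and Pcgf3 319.5 and 266.1. Pcgf3 and Pcgf6 passed through 1 of 3 probe sets each.

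The chromobox genes were divided. These proteins carry the domain that reads methylated H3, and a canonical PRC1 holds 1 of them. Cbx2 (201.1 and 220.1), Cbx6 (739.3 and 819) and Cbx8 (38.9 and 54.2) were above the bound, and Cbx8 was near it. Cbx2 and Cbx8 each had another probe set below the bound, at 2.4 and 10.3 for Cbx2 and 3.9 and 3.3 for Cbx8. Cbx7 was below it in 3 of 3 probe sets, with 14.6 and 22.1 in the brightest, 10.4 and 10.8 in the next and 1.6 and 2.0 in the last. Cbx7, known from embryonic stem cells and adult tissues, was therefore the only member without a signal above background on either array, which does not show that its transcript was absent. The polyhomeotic genes Phc1 (297.4 and 255.3), Phc2 (801.7 and 754.8) and Phc3 (77.2 and 89.1), whose proteins join PRC1 particles into larger assemblies, all passed.

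The trithorax genes were all well above the bound in their brightest probe sets. Kmt2a (also called MLL), the methyltransferase that maintains Hox expression, had 163.4 on array 1 and 137.9 on array 2. Kmt2c had 228.3 and 229.9, with 4 of 4 probe sets above the bound, and Kmt2d had 193.2 and 215.7 in 1 probe set and 7.1 and 17.4 in the other. Kmt2c and Kmt2d methylate histone H3 at enhancers. The shared partners of these enzymes lay between 164.5 and 314.7 in their brightest probe sets. They are Wdr5, Ash2l and Rbbp5, which form the common core, and Men1, which joins the complexes of Kmt2a and its close relative. Ash2l (24.1 and 28.0) and Men1 (4.4 and 7.0) each also had 1 probe set below the bound. A probe set of Wdr5 (51.6 and 57.9) and 1 of Kmt2c (45.3 and 48.0) were under 2 times the bound.

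The BAF complex was represented by both of its alternative ATPases and by all of the 14 members. Smarca4 (BRG1), the ATPase required in the early embryo, had 1114 and 1052 in its brightest probe set and 273.1 and 273.5 in the other. Smarca2 (BRM), the alternative ATPase, had 132.6 and 118.9, and 77.2 and 65.0. All 4 of these probe sets were above the bound on both arrays.

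The 7 core and accessory subunits ranged from 106.6 to 1316.5 in their brightest probe sets. Among them Smarcc1, a scaffold subunit also known as BAF155, had 1144 and 1075, and Smarcd2 had 1316.5 and 1283.3. Smarcc2, the related scaffold BAF170, had 254.2 and 259.3. Smarcd3 (BAF60c), which is known for its role in heart and muscle, had 261.9 and 298.5, and Smarcd1 had 112.7 and 106.6. Smarcb1 had 2 probe sets above the bound that differed in how the arrays compared, with 523 and 533.4 in one and 452.4 and 632.8 in the other, which is open to cross-hybridisation. A further probe set of Smarcb1 was below the bound at 8.1 and 12.2, and Smarcc1, Smarcd1 and Smarce1 also had 1 below it. The ARID subunits, of which Arid1a and Arid1b define BAF and Arid2 defines the related PBAF complex, lay between 239.3 and 526 in their brightest probe sets, and 1 of the 4 probe sets of Arid2 was below the bound.

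Both forms of the actin-related subunit were detected. Actl6a (BAF53a) belongs to the complex of progenitors and Actl6b (BAF53b) to that of postmitotic neurons. Actl6a passed in 3 of 3 probe sets, with 836.5 and 895.1 in the one open to cross-hybridisation, and 535.2 and 495.2 and 87.7 and 83.3 in the others. Actl6b had 1 probe set, with 103.3 on array 1 and 77.3 on array 2. The embryo was taken whole, so these signals do not say in which cells either form was present.

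Of the other subunits that are exchanged between the progenitor and the neuronal complex, Dpf1 and Dpf3 did not pass. The progenitor subunits Phf10 (775 and 740.1), Dpf2 (530.9 and 497.6), which is also broadly expressed, and Ss18 (296.2 and 289.2) were above background. Of the neuronal ones Ss18l1 (CREST) passed at 134.7 and 132.5. Dpf1 (BAF45b) was above the bound on array 1 only, at 34.6 and 29.2, and Dpf3 (BAF45c) on neither array, at 24.2 and 26.1. Markers of differentiated neurons (Tubb3, Stmn2, Dcx, Snap25, Map2 and Syt1) were above background in 6 of 6 cases and those of neural progenitors (Sox2, Nes, Hes5 and Fabp7) in 4 of 4. With Actl6b and Actl6a included, 2 of 4 neuronal and 4 of 4 progenitor subunits were above background, beside 65.7% of all named genes. The neuronal count depends on the bound, since Dpf1 exceeds the 90th percentile bounds of 22.1 and 28.8 on both arrays. No difference between these small sets was tested.

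All CHD remodellers passed, but not equally far from the bound. Chd4, the ATPase of the NuRD complex, had 465.4 and 406.5, with 3 of 3 probe sets above the bound, and its relative Chd3 had 430.3 and 364.7. Chd8, which is linked to autism and to beta-catenin targets, had 510 and 506.3, with 2 of 4 probe sets above. Chd7, the gene of CHARGE syndrome, had 144 and 136.9 in its brightest probe set, and its second was above the bound on array 1 only, at 43.1 and 29.9. Chd1 was near the bound in each of its 4 probe sets, all of which passed, with 57.3 and 64.0 in the brightest. Chd2 had 78.8 and 71.9, and 63.6 and 67.2.

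Other genes of the same complexes were above background in 74 of 78 measured cases, beside 65.7% of all named genes, and 48.7% to 93.7% of those with 1 and with 4 or more probe sets. The 11 measured other PRC1 genes, the 6 genes of the Polycomb deubiquitinase, the 13 other trithorax genes, the 13 other CHD and NuRD genes and the 15 genes of the ISWI, INO80 and related remodelling families passed in full. Of the other BAF and PBAF genes 14 of 16 passed, with Dpf1 and Dpf3 as the exceptions. Of the other PRC2 genes 2 of 4 passed. Epop, a cofactor of embryonic stem cells, had 26.9 on both arrays, and Ezhip, an inhibitor of PRC2 known from germ cells, had 3.8 and 3.3. Rybp and Ash1l were not analysed here. These lists of other genes, like that of the members, were chosen with earlier results of these data known.

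Probe sets of 1 gene did not always agree. Of the 128 probe sets of the members, 92 were above the bound on both arrays, 33 on neither and 3 on 1 array only. The share above was 71.9%, against 55.7% of all probe sets with 1 symbol. It was 60.9% for Polycomb, 81.2% for trithorax, 84.4% for BAF and 81.2% for CHD genes. Among the 41 members with several probe sets, 17 had all of them above the bound, where 29.5% of all genes with several probe sets did. At least 1 above and 1 below on both arrays was found in 21 of the 41, near the 46.6% of all such genes. Of the 20 Polycomb genes with several probe sets, 12 were among these 21. Probe sets designed on a RefSeq transcript were above the bound in 18 of 21 cases (85.7%), and those designed on another sequence in 74 of 107 (69.2%). For all genes these shares were 61.6% and 54.5%.

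The duplicates gave close signals for these genes, as for probe sets in general. Of all probe sets above the bound on both arrays, 96.2% lay within 1.5-fold. The log2 signal of array 2 minus that of array 1 was centred on the median of all 22203 probe sets above the bound on both arrays. Of the 92 probe sets of members, 1 differed by more than 1.5-fold, against 3.77% of all probe sets. It is a probe set of Phc3, with 31.6 on array 1 and 58.9 on array 2, a log2 difference of 0.89, and its array 1 signal was near the bound. The second probe set of Phc3 had 77.2 and 89.1, a log2 difference of 0.20. The higher signal of Phc3 on array 2 was therefore large in only 1 of its probe sets.

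The median log2 difference was -0.03 over the 92 probe sets, with 34 higher and 58 lower on array 2, against 0 with an SD of 0.26 over all probe sets, of which 50% were higher by construction. The medians were -0.03 for Polycomb, -0.06 for trithorax, -0.05 for BAF and -0.02 for CHD probe sets, and those of Polycomb and CHD genes turned to 0.0041 and 0.0058 with quantile normalization. With loess the CHD median was 0.021 and the Polycomb median -0.0008. Beyond Phc3, the widest differences were those of Smarce1 (328.8 and 233.7, log2 difference -0.50) and Cbx8 (log2 difference 0.47) and the cross-hybridising probe set of Smarcb1 (0.47). With 1 array against 1 array, no difference between the duplicates could be tested.

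**Figure D3:**
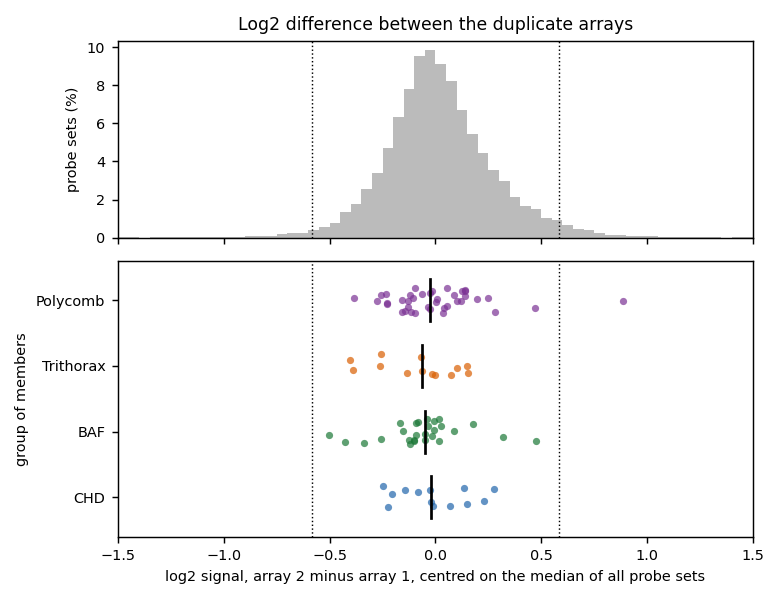
Log2 difference between array 2 and array 1, centred on the median of all probe sets above the bound on both arrays. The upper panel shows the percentage of all 22203 probe sets in bins of the difference, the lower panel the 92 probe sets of members as points by group with the group medians as bars; dotted lines mark 1.5-fold, which 1 point, a probe set of Phc3, exceeds.

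The sequences before the gene starts were examined as a feature that neither the choice of the genes nor the arrays used. RefSeq promoter windows (GRCm38.p6) were at hand for 42 of the 51 genes, in 52 windows, and the 250 bases before the start were searched for the pair CG, which reads the same on both strands. The count was divided by that expected from the C and G of the window. A ratio of at least 0.6 was found in 42 of 52 windows of the members (80.8%), in 63.4% of the windows of genes above background, in 25.2% of those of measured genes not above background and in 34% of all windows. The median ratio was 0.83 for the members and 0.71 for all genes above background. Windows of 1 gene can overlap, and the ratio is a description of these letters and not of methylation or binding.

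**Figure D4:**
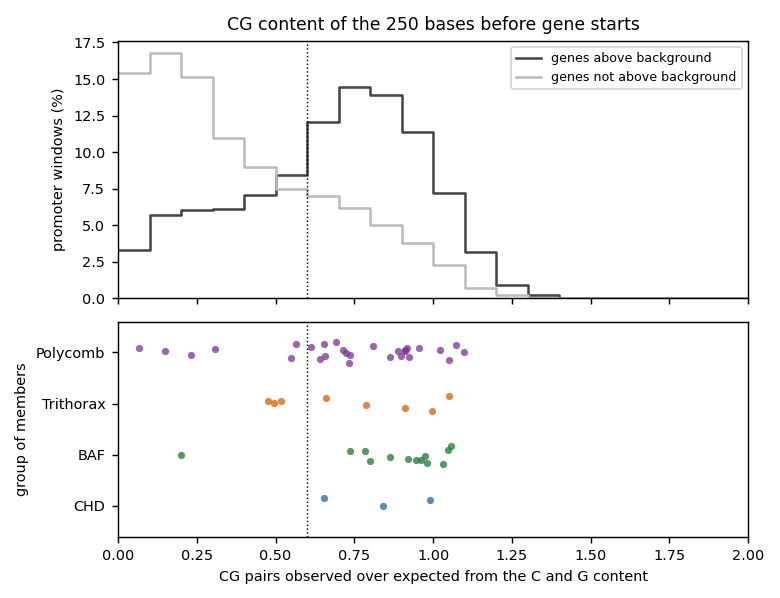
Ratio of observed to expected CG pairs in the 250 bases before the gene start. The upper panel shows the percentage of windows of other genes above background (dark) and not above background (grey) in bins of the ratio, the lower panel the 52 windows of members by group; the dotted line marks 0.6, above which 42 of the 52 windows lie.

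Cbx7, although not above background, had 23 CG pairs and a ratio of 0.92, and so resembled the members that passed. The windows of Cbx7 and of the paired alternatives Ezh2 and Ezh1 and Actl6a and Actl6b are shown from 5′ to 3′ on the strand of the gene, with CG pairs in capitals. They lie at chr15:79932647-79932896 (Cbx7, minus strand), chr6:47595031-47595280 (Ezh2, minus strand), chr11:101226464-101226713 (Ezh1, minus strand), chr3:32708296-32708545 (Actl6a, plus strand) and chr5:137553296-137553545 (Actl6b, plus strand).
Cbx7: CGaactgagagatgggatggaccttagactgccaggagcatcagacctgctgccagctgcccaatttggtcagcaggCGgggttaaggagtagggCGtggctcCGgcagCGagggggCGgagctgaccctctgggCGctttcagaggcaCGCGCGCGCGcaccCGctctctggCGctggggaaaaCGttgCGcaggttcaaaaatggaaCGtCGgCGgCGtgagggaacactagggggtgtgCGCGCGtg
Ezh2: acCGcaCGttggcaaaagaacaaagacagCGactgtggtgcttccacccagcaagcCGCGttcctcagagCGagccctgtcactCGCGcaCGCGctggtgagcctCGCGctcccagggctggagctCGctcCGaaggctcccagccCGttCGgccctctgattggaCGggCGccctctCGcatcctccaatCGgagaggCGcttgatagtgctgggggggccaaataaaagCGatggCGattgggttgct
Ezh1: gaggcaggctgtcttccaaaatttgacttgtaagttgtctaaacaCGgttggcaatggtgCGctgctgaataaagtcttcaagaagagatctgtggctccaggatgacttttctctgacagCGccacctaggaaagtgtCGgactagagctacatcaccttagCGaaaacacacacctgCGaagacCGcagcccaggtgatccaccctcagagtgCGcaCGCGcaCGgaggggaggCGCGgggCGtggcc
Actl6a: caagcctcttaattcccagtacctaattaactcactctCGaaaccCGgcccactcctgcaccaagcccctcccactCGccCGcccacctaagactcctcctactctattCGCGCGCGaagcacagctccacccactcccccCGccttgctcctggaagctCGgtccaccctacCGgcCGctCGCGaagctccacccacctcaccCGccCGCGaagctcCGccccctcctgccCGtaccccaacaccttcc
Actl6b: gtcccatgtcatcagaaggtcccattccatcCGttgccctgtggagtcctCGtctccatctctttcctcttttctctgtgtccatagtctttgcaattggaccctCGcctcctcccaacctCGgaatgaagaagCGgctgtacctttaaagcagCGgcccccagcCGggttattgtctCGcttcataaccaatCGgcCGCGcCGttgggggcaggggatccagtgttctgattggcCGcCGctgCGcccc

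Ezh2 had 23 CG pairs and a ratio of 0.91, against 14 and 0.74 for Ezh1. Actl6a had 19 and 1.05, against 15 and 0.74 for Actl6b. In these pairs the gene known from dividing or progenitor cells had the higher ratio, which was not a general pattern of alternative subunits. Smarca4 had 25 and 0.80 against 28 and 0.96 for Smarca2, and Smarcc1 had 21 and 0.86 against 40 and 0.98 for Smarcc2. All of these ratios are above 0.6. The windows with the lowest ratios belonged to Phc2 (0.066 in 1 of its 3 windows), Mtf2 (0.15 in 1 of 2), Smarcd2 (0.20) and Pcgf2 (0.23). All 4 of these genes were above background.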

How the data were processed

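Whole wild-type embryos at E14.5 supplied the RNA, which the authors hybridised to 2 Affymetrix arrays, in duplicate. The deposited table holds an intensity for every probe set, on a linear scale for each array. Per the submitters' processing notes the authors used GCOS 1.3, and each array had been scaled to a mean of 100 after trimming of 2% at each end. The detection calls and scanner images were not used here, and genome build and probe sequences are not given in the sources used here. Precision is limited by there being 2 arrays.

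Probe sets were named from the array annotation (34958 with 1 symbol, 932 with several, 9211 not listed), with symbols updated by gene identifier through the RefSeq table of GRCm38.p6 (34754 matched). The brightest probe set of a gene is that with the highest mean signal. Every member could be named by the rule; values are given for PRC2 core, ATPase, actin-related and MLL genes, members below, near or on 1 side of the bound, and those beyond 1.5-fold, and other members as examples. Exceptions of the lists of other subunits are named. The members are defined by symbol and not by a threshold on the signals, but they and the lists were chosen with earlier results of these data known. No test was made, with 1 condition and 2 arrays. The calling and difference steps were tested on simulated data. Receptor probe sets were silent there by design, so the assumption that they are silent in the embryo was not tested. Computations used Python 3.11.15, pandas 2.3.3, numpy 2.4.6, statsmodels 0.14.6 and matplotlib 3.10.9.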

Additional observations from a re-analysis of the deposited data

How the results depend on the processing

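With bounds at the 90th and 99th percentile, 50 of 51 members were above background, against 68.9% and 62% of all named genes. The count was also 50 with the array median as the bound (64% of all genes). Array 1 alone and array 2 alone gave 50 as well (69.2% and 66.9% of all genes). So did a call that needed the same probe set on both arrays. The count was 49 without probe sets open to cross-hybridisation (64.5% of all genes), where Jarid2 was lost and the Polycomb genes numbered 22. The probe sets of members above the bound ranged from 82 of 113 in that setting to 95 of 128 with the 90th percentile bound. They numbered 92 of 128 on array 2 alone and 95 on array 1 alone. With the main bounds 55.7% of all probe sets with 1 symbol passed, and no such share is given for these settings. Without a filter and with a pseudocount of 16, 2 of 128 probe sets of members were beyond 1.5-fold, against 4.34% of all probe sets. Chd8 joined Phc3 there through a probe set below the bound (9.0 and 22.5). With the 99th percentile bound 0 of 89 were beyond 1.5-fold, against 3.05% of all probe sets. The Phc3 probe set did not pass that bound on array 1. The median log2 difference over the members stayed between -0.043 and -0.017 under the 7 alternatives for it (no centring, quantile normalization, loess, no filter, both other percentile bounds and removal of cross-hybridising probe sets). Differences need both arrays and could not be computed with 1 array left out. Signals near the bound, as in Pcgf1 and Cbx8, are the least certain calls, and 2 arrays of 1 condition give no measure of variation between embryos. No paired analysis was possible because there is only 1 group.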
